A study of Rattus norvegicus with 18 samples.

Results

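The Cyp4a genes encode cytochrome P450 enzymes of the endoplasmic reticulum that place a hydroxyl group on the last, omega carbon of a fatty acid. Measured here were 4 of them, Cyp4a12a (ENSMUSG00000066071), Cyp4a12b (ENSMUSG00000078597), Cyp4a10 (ENSMUSG00000066072) and Cyp4a14 (ENSMUSG00000028715), out of 55335 identifiers in a table of RNA-seq counts from kidney. They were taken by identifier and were chosen by measured values of these libraries: CPM of Cyp4a12a had been seen to be lower in treated than in untreated model kidneys and higher in both than in controls. Their levels and fold changes are therefore given as a description, without p-values. All 4 passed the filter on low counts, as did 19233 genes in all.

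The libraries come from groups of 6 animals each. Animals of the Treat group received TSK orally at 500 mg/kg per day for 4 weeks, on top of the high-fat feed and STZ (streptozotocin, a toxin of insulin-producing cells) that make the diabetic nephropathy model. Animals of the DN group were the model without TSK. Ctrl animals had ordinary feed and gavage of the solvent. Feed and STZ thus differ together between both model groups and Ctrl, and the labels give neither what DN animals received by gavage nor the sex, strain or age of any animal. TSK is named by its abbreviation alone. The labels call the animals rats, whereas every identifier is a mouse gene. In the rat gene table, Cyp4a1 carries Cyp4a10 among its synonyms, Cyp4a3 carries Cyp4a14, and Cyp4a8 carries Cyp4a12, so that in rats a mouse identifier would stand for reads of a related rat gene. No length of these genes was used, and levels are compared between groups for a gene, not between genes. Ratios of counts of paired genes are compared between libraries and groups and do not give the relative level of the genes. The tissue could not be checked against kidney markers, because the sources used here pair no other identifier with a gene name.

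As background, omega-hydroxylation starts a side route of fatty acid breakdown: the hydroxylated acid is oxidised to a dicarboxylic acid, which peroxisomes then shorten. The same enzymes act on arachidonic acid, and the omega-hydroxylated product constricts renal arterioles and acts on salt transport in the tubule. In mice, Cyp4a10 and Cyp4a14 are classic targets of the fatty acid receptor PPAR-alpha in liver and kidney. Cyp4a12a is the main omega-hydroxylase of arachidonic acid in mouse kidney, where it is raised by androgens and is more abundant in males. Cyp4a12b is its near-identical neighbour.

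Library totals ranged from 22040987 to 28135824 counts in Treat, from 25505257 to 35275498 in DN and from 26312358 to 34140706 in Ctrl. Together the 4 genes took 0.183% to 0.475% of a library's counts in Treat, 0.225% to 0.396% in DN and 0.0869% to 0.164% in Ctrl. Levels are given as CPM, counts scaled to a common library total with TMM factors, which averaged 1.06 ± 0.0498 in Treat, 0.964 ± 0.0406 in DN and 0.983 ± 0.0314 in Ctrl (SD, n = 6 each). Library 1 of Treat (factor 1.15) and library 4 of Ctrl stand apart from their groups in the values below. In Ctrl library 4 the identifier ENSMUSG00000086503, which has no name in the sources used here, had 23 counts, as against 12 to 41 in all Treat and DN libraries and 38313 to 52784 in the other 5 Ctrl libraries. Ctrl and the model groups therefore also differ by whatever this identifier marks, and that difference and the model cannot be told apart for 5 of the 6 Ctrl libraries.

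Under TSK the family split into 2 pairs. Cyp4a12a and Cyp4a12b were lower in every Treat kidney than in any DN kidney, at 0.300 and 0.501 of the DN mean. Cyp4a10 and Cyp4a14 had overlapping levels in Treat and DN, at 1.02 and 1.14 of the DN mean. Compared with Ctrl, all 4 genes were higher in DN, by 30.5-fold, 10.9-fold, 2.46-fold and 1.94-fold of the Ctrl mean for Cyp4a12a, Cyp4a12b, Cyp4a10 and Cyp4a14. In whole tissue, fewer cells that express a gene and less RNA per cell cannot be told apart.

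**Figure D1:**
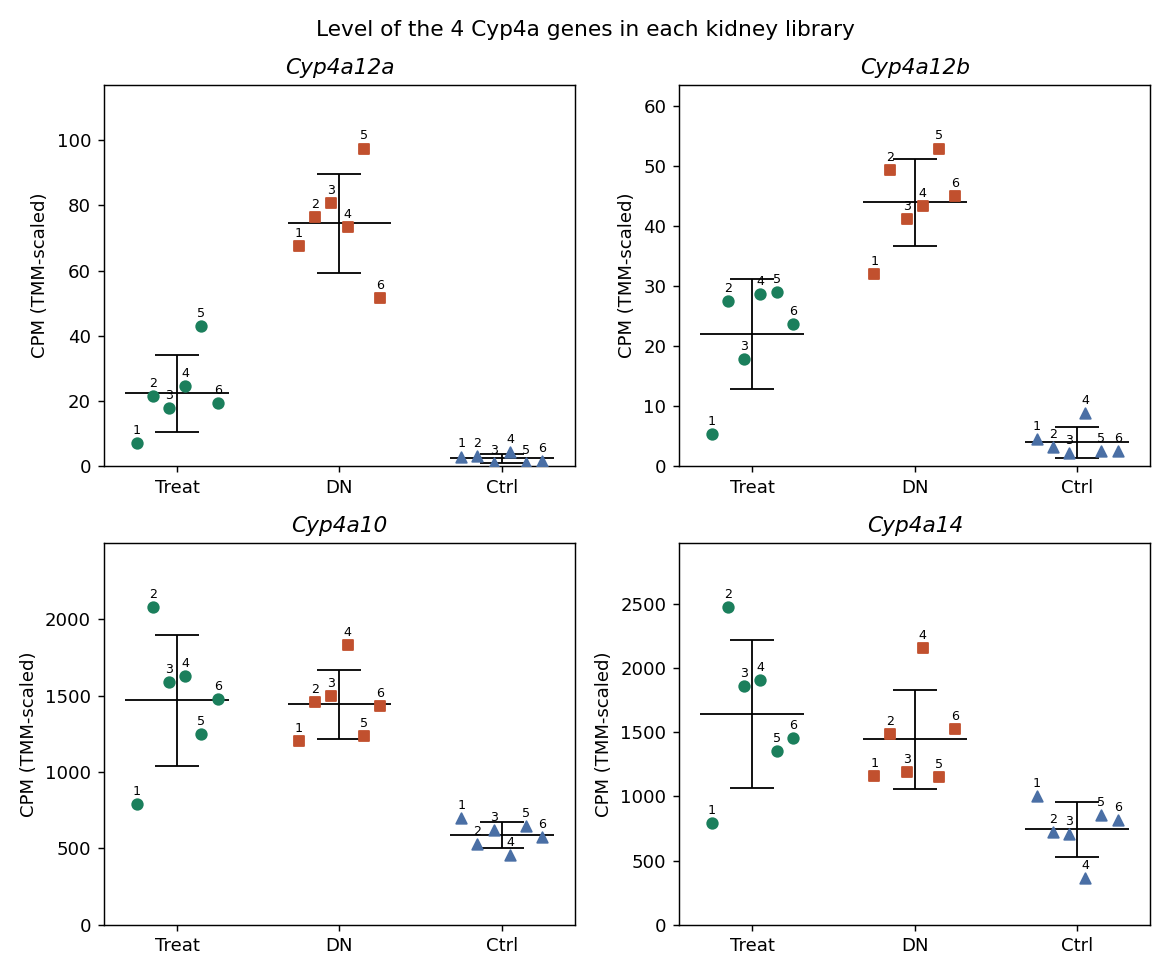
Level of each Cyp4a gene (CPM, TMM-scaled, axes from 0) in every library, with the replicate number beside each point and the group mean ± SD as lines (n = 6 per group). Treat points of Cyp4a12a and Cyp4a12b all lie under the DN points, whereas those of Cyp4a10 and Cyp4a14 spread around them, and Treat library 1 is the lowest Treat point in all 4 panels.

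Cyp4a12a stood at 7.24 CPM in the lowest Treat library, 20.5 at the median and 43.1 in the highest, against 51.6, 74.8 and 97.4 CPM in DN. The highest Treat library (5) was still below the lowest DN library (6), so the groups did not overlap. The means were 22.4 ± 11.8 CPM in Treat and 74.5 ± 15.1 CPM in DN (SD, n = 6 each), a log2 fold change of -1.74 with an SE of 0.33 and a 95% interval of -2.44 to -1.04. By size of fall this placed Cyp4a12a at rank 32 of the 19233 genes tested between Treat and DN. The gene was chosen with this contrast in view, so nothing is read from the rank. Raw counts behind these levels were 205 to 1149 in Treat and 1630 to 2616 in DN, so that counting error is small beside the spread between animals.

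Cyp4a12b stood at 5.44 CPM in the lowest Treat library, 25.5 at the median and 29.1 in the highest, against 32.1, 44.1 and 52.9 CPM in DN. The gap between the highest Treat and the lowest DN library was narrow, but here too no library of one group reached the other. The means were 22.0 ± 9.15 CPM in Treat and 44.0 ± 7.20 CPM in DN (SD, n = 6 each), with a log2 fold change of -1.0, an SE of 0.34 and a 95% interval of -1.71 to -0.29. Without Treat library 1 the log2 fold change was -0.80 for Cyp4a12b and -1.55 for Cyp4a12a.

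Cyp4a10, the PPAR-alpha target, stood at 793 CPM in the lowest Treat library, 1532 at the median and 2082 in the highest, against 1203, 1443 and 1832 CPM in DN. One Treat library (1) lay below every DN library and 1 (library 2) above every one. The means were 1470 ± 429 CPM in Treat and 1442 ± 226 CPM in DN (SD, n = 6 each), and the log2 fold change was 0.03 with an SE of 0.17 and a 95% interval of -0.34 to 0.39. This interval holds no change as well as changes of that size in either direction.

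Cyp4a14 stood at 790 CPM in the lowest Treat library, 1661 at the median and 2478 in the highest, against 1153, 1340 and 2156 CPM in DN. Treat library 1 was again below all DN libraries, Treat library 2 was above all of them, and 5 of the 6 Treat libraries exceeded the DN median. The means were 1643 ± 577 CPM in Treat and 1445 ± 386 CPM in DN (SD, n = 6 each), with a log2 fold change of 0.19, an SE of 0.25 and a 95% interval of -0.33 to 0.70. DN library 4 held the highest DN level of both Cyp4a10 and Cyp4a14, and without it the log2 fold change of Cyp4a14 was 0.33. Without Treat library 2 it was 0.03.

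Counted over the whole table, 1 of the 4 genes (Cyp4a12a) passed the threshold between Treat and DN, an adjusted p under 0.05 in edgeR's quasi-likelihood test, which 1.39% of the genes tested passed in either direction and 0.858% as lower in Treat. Non-overlapping groups, lower in Treat, were found for 2 of the 4 genes and for 1.03% of the genes tested. Because these genes were picked with this contrast in view, nothing is read from those counts. The median log2 fold change was -0.49 over the 4 genes and -0.01 over all genes tested, and with 2 low and 2 near 0 the family median describes neither pair.

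**Figure D2:**
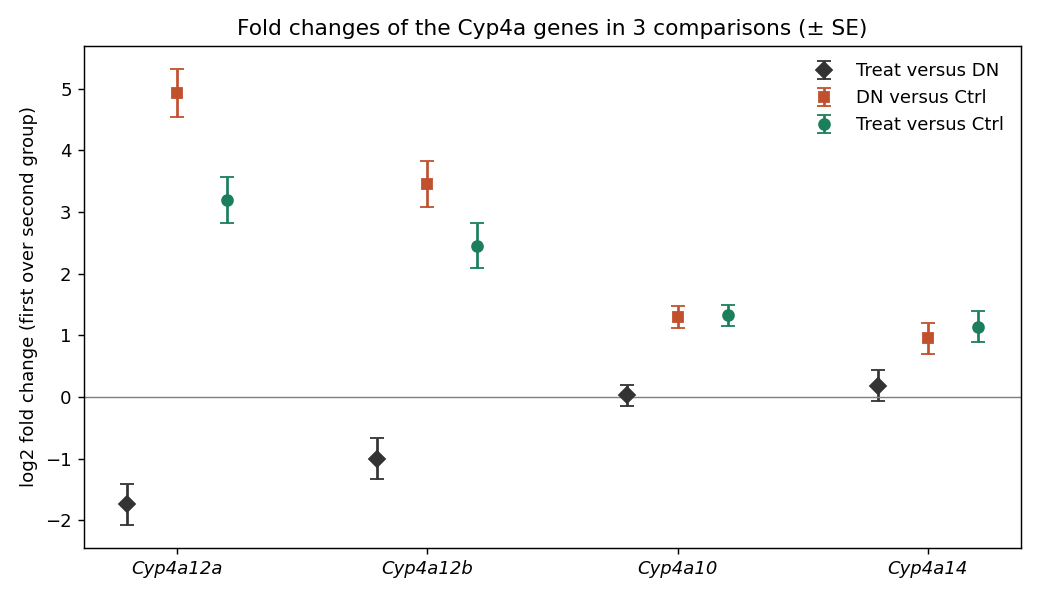
Log2 fold change (± SE, from 1 fit of all 18 libraries) of each gene for Treat versus DN, DN versus Ctrl and Treat versus Ctrl, the first group over the second. Treat versus DN is -1.74 and -1.0 for Cyp4a12a and Cyp4a12b and 0.03 and 0.19 for Cyp4a10 and Cyp4a14, while both comparisons with Ctrl are above 0 for all 4 genes; the comparisons share groups and are not independent.

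DN was set against Ctrl next, a contrast that holds the split of the controls by ENSMUSG00000086503 as well as the model. For Cyp4a12a, DN libraries held 51.6 to 97.4 CPM (median 74.8), against 1.10 to 4.49 CPM (median 2.40) in Ctrl. The log2 fold change was 4.93 (SE 0.39), at rank 107 among rises of the 19233 genes tested. This contrast too entered the choice of Cyp4a12a, so nothing is read from that rank. The lowest Ctrl library rested on 30 counts, with an exact Poisson 95% interval of 20.2 to 42.8 counts for counting error alone. Cyp4a12b held 32.1 to 52.9 CPM (median 44.1) in DN, against 2.27 to 8.93 CPM (median 2.91) in Ctrl, a log2 fold change of 3.45 (SE 0.37). For both genes the highest Ctrl library was library 4, and it too was far below every DN library.

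The differences of the PPAR-alpha targets were smaller on the log2 scale. Cyp4a10 held 1203 to 1832 CPM (median 1443) in DN, against 454 to 701 CPM (median 596) in Ctrl, a log2 fold change of 1.30 (SE 0.18). Cyp4a14 held 1153 to 2156 CPM (median 1340) in DN, against 366 to 1005 CPM (median 768) in Ctrl, a log2 fold change of 0.96 (SE 0.25). In both genes library 4 was the lowest of the Ctrl libraries, the opposite of its place in the Cyp4a12 pair.

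All 4 genes passed the threshold as higher in DN than in Ctrl, which 16.9% of all genes tested also did (32.2% in either direction). The DN and Ctrl libraries did not overlap for any of the 4, a separation in the same direction found for 8.34% of genes. The choice of genes drew on Cyp4a12a being higher in DN than in Ctrl, so nothing is read from these counts. With the split of the controls by ENSMUSG00000086503 as a covariate, DN is in effect set against Ctrl library 4 alone. The log2 fold changes were then 4.05 (SE 0.79) for Cyp4a12a and 2.30 (SE 0.63) for Cyp4a12b, lower than without the covariate. They were 1.67 (SE 0.36) for Cyp4a10 and 1.98 (SE 0.47) for Cyp4a14, higher than without it. The direction was the same for each of the 4 genes in both fits, but on the linear scale all but Cyp4a10 moved by over 1.5 times, and the fit with the covariate rests on a single control.

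Compared with Ctrl, Treat kidneys still held more of each transcript. Cyp4a12a stood at 7.24 to 43.1 CPM in Treat, against 1.10 to 4.49 CPM in Ctrl, with no overlap and a log2 fold change of 3.19 (SE 0.37). Cyp4a12b stood at 5.44 to 29.1 CPM in Treat, against 2.27 to 8.93 CPM in Ctrl, with a log2 fold change of 2.45 (SE 0.36). Here Treat library 1 lay below Ctrl library 4, and the other 5 Treat libraries were above all controls. For Cyp4a12a the Treat mean was thus 9.15-fold above the Ctrl mean and 3.33-fold below the DN mean, and for Cyp4a12b the same ratios were 5.46 and 2.0.

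Cyp4a10 was 2.50-fold and Cyp4a14 2.21-fold of the Ctrl mean in Treat, with log2 fold changes of 1.32 (SE 0.18) and 1.14 (SE 0.25). Treat and Ctrl did not overlap for Cyp4a10. For Cyp4a14, Treat library 1 (790 CPM) lay within the range of the controls and the other 5 Treat libraries exceeded all of them. All 4 genes passed the threshold as higher in Treat than in Ctrl, against 23% of the genes tested, and 2 of the 4 had non-overlapping groups, against 11.5%. Nothing is read from these counts either, because this contrast too entered the choice of genes. With the split of the controls as a covariate, the log2 fold change was 2.32 (SE 0.71) for Cyp4a12a, 1.69 (SE 0.36) for Cyp4a10 and 2.17 (SE 0.48) for Cyp4a14. For Cyp4a12b it was 1.30 (SE 0.59), and its adjusted p no longer met the threshold.

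By mean level, both Cyp4a12 copies were highest in DN, intermediate in Treat and lowest in Ctrl, and neighbouring groups were apart in every library except Treat library 1 and Ctrl library 4 for Cyp4a12b. For Cyp4a10 and Cyp4a14 Ctrl was likewise lowest, and Treat and DN did not differ beyond their spread. For each gene the place of Ctrl also holds the split of the controls by ENSMUSG00000086503, so this order cannot be assigned to the model. With that split as a covariate, the differences from Ctrl were smaller for both Cyp4a12 copies and larger for Cyp4a10 and Cyp4a14.

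The 2 near-identical Cyp4a12 copies did not keep a constant proportion. Within a library, Cyp4a12a had 0.788 to 1.48 counts per count of Cyp4a12b in Treat (median 0.938), 1.15 to 2.11 in DN (median 1.77) and 0.458 to 0.951 in Ctrl (median 0.579). DN and Ctrl libraries did not overlap in this ratio, while Treat libraries 1 and 5 were above the lowest DN library and Treat libraries 2, 4 and 6 were below the highest Ctrl library. The ratio does not depend on library depth or scaling, but how the counting divided reads between copies this alike is not given in the sources used here, and the values of each copy are uncertain on that account. Summed as 1 unit, the pair had a log2 fold change of -1.42 (SE 0.33) for Treat versus DN, 4.20 (SE 0.38) for DN versus Ctrl and 2.78 (SE 0.36) for Treat versus Ctrl.

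Cyp4a10 and Cyp4a14 stayed closer to a fixed proportion. Cyp4a10 had 0.840 to 1.01 counts per count of Cyp4a14 in Treat (median 0.887), 0.850 to 1.26 in DN (median 1.01) and 0.698 to 1.24 in Ctrl (median 0.743). The groups overlapped. In Ctrl the value of 1.24 belonged to library 4, and the other 5 controls lay between 0.698 and 0.878.

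**Figure D3:**
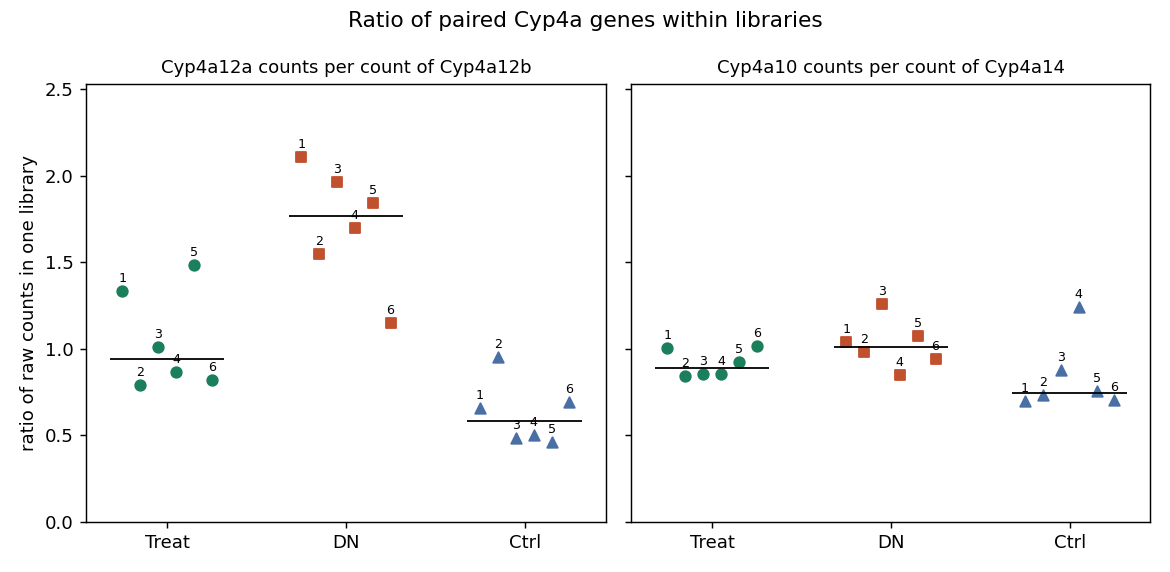
Ratio of raw counts within each library, Cyp4a12a to Cyp4a12b on the left and Cyp4a10 to Cyp4a14 on the right, with replicate numbers beside the points and the group median as a line (n = 6 per group). DN medians are 1.77 on the left and 1.01 on the right; Ctrl library 4 is the control at 1.24 on the right.

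The same pairs appeared in the spread among animals of a group. After each group's mean log2 CPM was subtracted, Cyp4a10 and Cyp4a14 had a Pearson r of 0.91 over the 18 libraries (Spearman's rho 0.89). Within the groups it was 0.99 in Treat, 0.88 in DN and 0.90 in Ctrl, over 6 libraries each. Cyp4a12a and Cyp4a12b had an r of 0.86 (rho 0.80), made up of 0.91 in Treat, 0.37 in DN and 0.88 in Ctrl. These coefficients describe libraries that share depth and scaling between genes, and reads that could be divided between copies, and carry no p.

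Between the pairs r was lower over all 18 libraries and rested on single libraries. Cyp4a12a had an r of 0.16 with Cyp4a10 and 0.03 with Cyp4a14, and Cyp4a12b had 0.40 and 0.18 with the same genes. Within Treat these 4 values were all positive, at 0.57 and 0.56 for Cyp4a12a and 0.82 and 0.80 for Cyp4a12b, and within Ctrl all negative, at -0.58, -0.50, -0.57 and -0.69 in the same order. Within DN they were -0.14, -0.32, 0.17 and 0.18.

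Treat library 1 was low in all 4 genes, and Ctrl library 4 was high in one pair and low in the other. Without Treat library 1, r with Cyp4a10 and Cyp4a14 was -0.46 and -0.46 for Cyp4a12a and -0.27 and -0.43 for Cyp4a12b (17 libraries). Without Ctrl library 4 it was 0.34 and 0.36 for Cyp4a12a and 0.70 and 0.68 for Cyp4a12b. Without both it was -0.30 and -0.16 for Cyp4a12a and 0.14 and 0.23 for Cyp4a12b (16 libraries), so no sign of a relation between the pairs held throughout. In the same 3 sets r stayed at 0.79, 0.83 and 0.71 for Cyp4a12a with Cyp4a12b and at 0.88, 0.94 and 0.89 for Cyp4a10 with Cyp4a14. The libraries that were high differed by pair: Treat library 5 was the highest Treat library in both Cyp4a12 copies, at 43.1 CPM for Cyp4a12a, and below the Treat median in Cyp4a10 (1249 CPM) and Cyp4a14 (1356 CPM). DN library 5 likewise had the most Cyp4a12a and Cyp4a12b of the DN libraries. It also had the least Cyp4a14 (1153 CPM), close to DN library 1 (1157 CPM). DN library 1 did not differ by pair in this way, as the lowest DN library in both Cyp4a12b (32.1 CPM) and Cyp4a10 (1203 CPM).

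**Figure D4:**
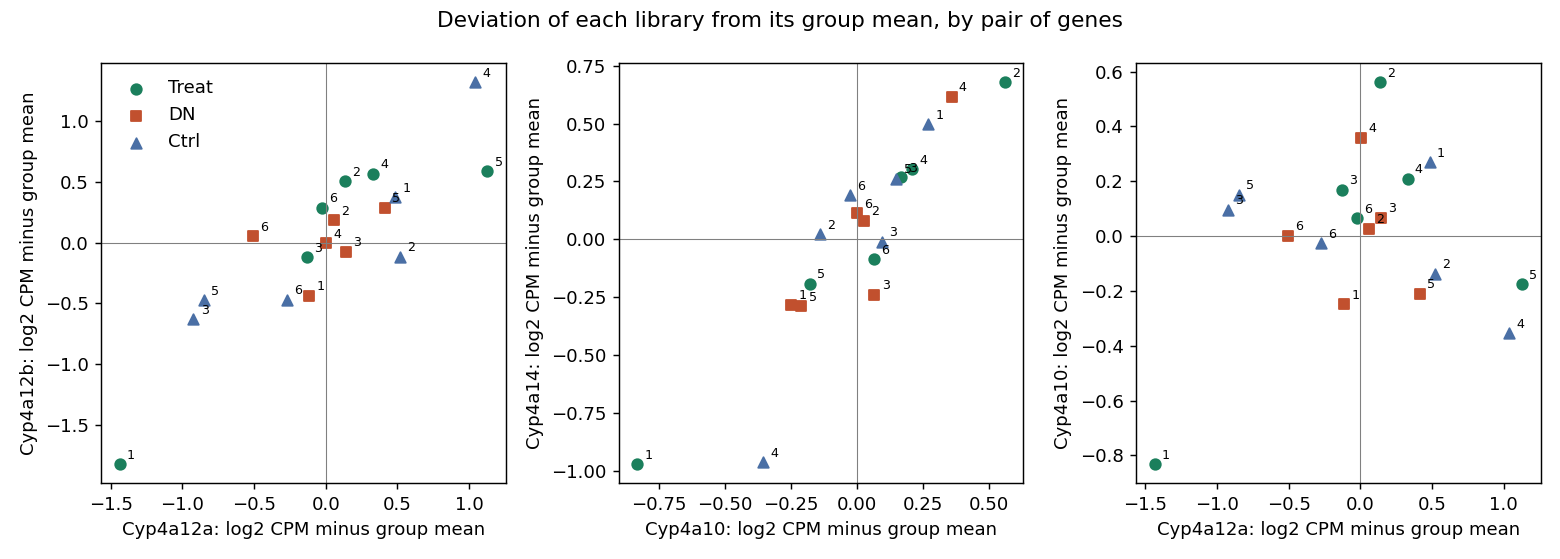
Deviation of each library from its group's mean log2 CPM, for Cyp4a12a and Cyp4a12b (left), Cyp4a10 and Cyp4a14 (middle) and Cyp4a12a and Cyp4a10 (right), 18 libraries with replicate numbers. Points line up along the rising diagonal in the left and middle panels (r of 0.86 and 0.91) and not in the right panel (r of 0.16), where Treat library 1 is the point at the lower left and Ctrl library 4 lies at the lower right.

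The spread within groups rested in part on the same 2 libraries. The coefficient of variation of Cyp4a12a was 52.7% in Treat, 20.3% in DN and 54.5% in Ctrl, where genes within 2-fold of its level in the same group had medians of 12.8%, 12.9% and 23.6%. For Cyp4a12b it was 41.6%, 16.4% and 63.3%, beside medians of 12.8%, 12.8% and 19.4%. For Cyp4a10 it was 29.2%, 15.7% and 15.0%, beside 20.7%, 14.1% and 9.22%, and for Cyp4a14 35.1%, 26.7% and 28.8%, beside 20.7%, 14.4% and 9.94%.

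Without Treat library 1 the coefficients in Treat were 40.4% for Cyp4a12a, 18.6% for Cyp4a12b, 19.0% for Cyp4a10 and 24.5% for Cyp4a14 (n = 5). Genes of like level over those 5 libraries had medians of 10.3%, 10.3%, 11.3% and 11.3%. Without Ctrl library 4 the coefficients in Ctrl were 48.3%, 31.3%, 10.9% and 14.6% in the same order of genes, beside medians of 22.7%, 19.3%, 7.18% and 7.32%. Those of Cyp4a12b and Cyp4a10 in Treat and of Cyp4a12b and Cyp4a14 in Ctrl thus moved by over 1.5 times with 1 library.

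Among 15871 other genes with a mean of at least 1 CPM, likeness to a member was ranked by Pearson's r of log2 CPM. Over all 18 libraries Cyp4a12a was the gene most like Cyp4a12b (r = 0.98) and Cyp4a10 the gene most like Cyp4a14 (r = 0.93). Cyp4a12b came in place 2 for Cyp4a12a, after ENSMUSG00000104973 (r = 0.98), which stood at 2.27 ± 0.952 CPM in Treat, 3.63 ± 0.296 CPM in DN and 0.501 ± 0.260 CPM in Ctrl (SD, n = 6 each). Cyp4a14 came in place 23 for Cyp4a10. The differences between groups enter this likeness, and the number of genes that reached an r of 0.9 was 92 for Cyp4a12a, 118 for Cyp4a12b, 96 for Cyp4a10 and 4 for Cyp4a14.

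After subtraction of group means, Cyp4a10 and Cyp4a14 were each other's closest gene of all 15871, and the number that reached an r of 0.9 was 1 for Cyp4a12a, 12 for Cyp4a12b, 1 for Cyp4a10 and 4 for Cyp4a14. The gene closest to Cyp4a12a was ENSMUSG00000028713 (r = 0.94), with 742 ± 291 CPM in Treat, 1058 ± 157 CPM in DN and 139 ± 107 CPM in Ctrl (SD, n = 6 each). Like the Cyp4a12 copies, it was lowest in library 1 of Treat (213 CPM) and highest in library 4 of Ctrl (324 CPM). Likeness was not ranked without these libraries, so how far the places and numbers rest on them was not tested. Cyp4a12b was in place 4 for Cyp4a12a, while Cyp4a12a was in place 26 for Cyp4a12b.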

How the data were processed

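Polyadenylated kidney RNA of 18 animals was sequenced. The authors deposited raw counts per gene, 1 column per library. Genome builds GRCm38 and mm10 are from the submitters' processing notes; no source used here names the aligner, the counter or whether strand was used. Columns were matched to samples by library name. The counts were fitted with edgeR 4.0.16 (R 4.3.3): filterByExpr, TMM factors, 1 coefficient per group over all 18 libraries, the quasi-likelihood F-test, and Benjamini-Hochberg adjusted p under 0.05 over all genes. SEs came from the F statistics. Log2 CPM used a prior count of 2. The fitting code was tested on simulated data. No 2 libraries of a group agreed within counting error (chi-square per degree of freedom at least 12.5).

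The 4 genes, the rule for named genes and 16 lists of other genes (230 symbols) were chosen with earlier results of these data known. By that rule all 4 genes are described, and the genes most like them and called list members were to be named. Of the identifiers, 0 matched the rat gene table, so no list could be tested. No list member is therefore described, and few identifiers of the genes most like the 4 are printed. Alternatives were DESeq2 1.42.0, other scaling and filters, fewer libraries, a replicate block, the split of the controls as covariate, and summed Cyp4a12 copies. Leaving out Ctrl library 4 together with Treat library 1, and the correlations and coefficients of variation under alternatives, were added after the data had been seen.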

Additional observations from a re-analysis of the deposited data

Results flagged for a closer look

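Each of the 12 sets of 6 libraries (4 genes in 3 groups) was searched for a library far from the others by Dixon's criterion, which chance meets in about 5% of sets. Cyp4a12b in Ctrl library 4 stood at 8.93 CPM, with the next highest control at 4.62 CPM. Cyp4a14 in DN library 4 stood at 2156 CPM, with the next highest DN library at 1523 CPM.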

How the results depend on the processing

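Over 28 alternatives each, the log2 fold changes of the 4 genes kept their direction in the 3 comparisons, except for Cyp4a10 between Treat and DN, whose value near 0 changed sign in 4 (lowest -0.10, without Treat library 2). With single libraries left out, Treat versus DN ranged from -2.03 to -1.55 for Cyp4a12a, -1.09 to -0.80 for Cyp4a12b, -0.10 to 0.15 for Cyp4a10 and 0.03 to 0.33 for Cyp4a14. Cyp4a12a met the threshold in all 28 and Cyp4a12b in 2 (as the sum of both copies, and without Ctrl library 4 and Treat library 1). These fits reuse the libraries by whose values the genes were chosen, so nothing is read from how often the threshold was met.

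With the split of the controls as a covariate, the log2 fold changes for DN versus Ctrl were 4.05, 2.30, 1.67 and 1.98 (Cyp4a12a, Cyp4a12b, Cyp4a10, Cyp4a14), and for Treat versus Ctrl 2.32 for Cyp4a12a, 1.30 for Cyp4a12b and 2.17 for Cyp4a14; the cause was not tested beyond the single control this leaves. It called 986 genes between DN and Ctrl, against 6202 in the fit without it, and 1862 between Treat and Ctrl, against 8629. Summed Cyp4a12 copies gave 4.20 for DN versus Ctrl.

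Between Treat and DN, 268 genes were called (103 higher, 165 lower). The number was 775 under plain library totals, with no TMM factors (654 higher, 84.4% of calls against 38.4%), 799 with DESeq2, 119 without a filter, 116 with the 12 libraries compared and 593 without Ctrl library 4 and Treat library 1. With single libraries left out it ranged from 97 to 446. It was over 1.5 times higher without Treat library 1 (446), and lower by that factor without Treat library 3 (119) or 6 (160), DN library 1 (152), 2 (119), 4 (97) or 6 (125), or Ctrl library 6 (164). With the replicate number as a block it was 117. Deviations of same-numbered libraries were at most weakly correlated (r of -0.19 to 0.19 over 18 pairs, over 0.1 in 2). This gave no clear sign that the numbers pair the animals, but weak correlations cannot exclude a pairing. Counts of the gene lists were not run, for want of names.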
